A study of Mus musculus with 8 samples.

Results

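A set of 8 genes of the cardiac jelly were followed in embryonic mouse ventricles in which Mib1 was targeted in cardiomyocytes. The set held 4 matrix genes (Vcan, Has2, Hapln1 and Cd44) and 4 genes of ADAMTS proteases (Adamts1, Adamts4, Adamts5 and Adamts9). They were chosen by name, with earlier results of these data known. All 8 were found among the 13869 genes of the deposited table, and all 8 passed the filter on low values. RNA came from heart ventricles at E14.5 and was sequenced as polyadenylated RNA from 1 end. The mutant group (genotype Mib1flox; TnT-Cre in the labels) carried a floxed Mib1 allele and Cre recombinase driven by the cardiac troponin T promoter, which is active in cardiomyocytes, so the other cell types of the ventricle keep the gene. The control group held wild-type siblings, for which the labels name no Cre and no floxed allele. Each genotype was represented by 16 hearts, whose ventricles were combined into 4 libraries, so each value below is that of a pool, and whether pools shared litters is not stated.

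Cardiac jelly is the gel between the endocardium and the myocardium of the developing heart. Hyaluronan, made at the cell surface by hyaluronan synthase 2 (Has2), binds the large chondroitin sulfate proteoglycan versican (Vcan), and hyaluronan and proteoglycan link protein 1 (Hapln1) stabilises that complex, while CD44 is a cell-surface receptor for hyaluronan. The secreted metalloproteases ADAMTS1, ADAMTS4, ADAMTS5 and ADAMTS9 can cleave versican, and removal of the jelly by such proteases accompanies the end of trabecular growth. Mib1 encodes a ubiquitin ligase that Notch ligands need in the cell that sends the signal, and Notch signalling between myocardium and endocardium is known to act on both the building and the breakdown of this matrix.

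Adamts1 was lower in the mutants, and none of the other 7 genes passed the test. Adamts1 fell to 0.854 of its wild-type level, a small change. The 4 matrix genes lay between 0.988 and 1.07 of wild type, and the proteases Adamts4, Adamts5 and Adamts9 between 0.893 and 1.0. In the comparison of all 13740 genes tested with limma (a linear model whose gene-wise variances are moderated across genes; called at a Benjamini-Hochberg adjusted p under 0.05), 2.24% of genes were called in either direction, 1.25% as lower and 0.99% as higher. The count of called members, 1 of 8, is read against that background.

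For the gene that passed and for its substrate, the 250 bases before the annotated start are shown, so that the proximal promoters can be read side by side. They are RefSeq sequences of GRCm38.p6, both on the minus strand, at chr16:85803114-85803363 for Adamts1 and chr13:89742513-89742762 for Vcan. Capitals mark matches to TATAAA (the TATA box) or to TGGGAA (the core of the site of RBPJ, the DNA-binding partner of Notch), searched on both strands together with the E-box CACGTG.
Adamts1: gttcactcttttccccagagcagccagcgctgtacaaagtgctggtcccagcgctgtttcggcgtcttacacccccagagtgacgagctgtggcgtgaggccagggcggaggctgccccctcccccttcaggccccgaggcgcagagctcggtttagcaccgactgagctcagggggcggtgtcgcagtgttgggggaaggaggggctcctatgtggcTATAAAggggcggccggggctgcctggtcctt
Vcan: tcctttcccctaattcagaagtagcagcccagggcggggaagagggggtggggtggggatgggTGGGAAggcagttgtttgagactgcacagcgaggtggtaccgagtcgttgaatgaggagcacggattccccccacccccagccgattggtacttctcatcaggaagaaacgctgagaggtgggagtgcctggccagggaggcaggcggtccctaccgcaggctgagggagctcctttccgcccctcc
The Adamts1 stretch held 1 TATA box and no other match, and the Vcan stretch held 1 RBPJ core and no other match. Of the 5 members with a promoter in the RefSeq table, Cd44 held 2 RBPJ cores, while Hapln1 and Adamts9 held none of the 3 motifs. Among 32851 promoters of the same length, 21.6% held an RBPJ core, 12.4% a TATA box and 6.02% an E-box. A match is a description of letters and not evidence of binding.

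The labels were first checked against Mib1, and marker levels are set beside it. Mib1 stood at 95.3 to 106 CPM in the mutants and at 150 to 167 CPM in wild type (CPM, counts per 1000000 of the normalized library). Its level in the mutants was 0.623 of wild type, and bulk RNA cannot tell remaining transcript of cardiomyocytes from that of other cells. Recovered library totals ran from 6307634 to 11506082 counts, and a floor of 3 counts corresponded to at most 0.472 CPM, for counting error only. All 8 ventricular cardiomyocyte markers were present, with summed levels of 30406 to 33756 CPM in the mutants and 31947 to 35819 CPM in wild type. Of 8 trabecular markers 6 were called lower, and of 6 compact-layer markers 3 were called higher and 1 lower. Among all genes tested 1.25% were called lower and 0.99% higher. The marker lists were chosen with earlier results of these data known, so these counts are a description and no check of the labels.

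In wild type the 8 genes differed widely in level. Per kilobase of the longest protein-coding transcript, Vcan was highest at 45.0 ± 2.01 CPM per kb (SD, n = 4), followed by Adamts1 at 22.8 ± 0.687. Adamts9 at 11.8 ± 0.583 and Cd44 at 11.0 ± 0.416 came next, and their libraries overlapped. Hapln1 stood apart at 4.62 ± 0.642 CPM per kb, above the overlapping levels of Has2 (2.07 ± 0.158), Adamts4 (2.06 ± 0.346) and Adamts5 (1.79 ± 0.192). Adamts1 was thus the protease of the 4 with the highest level per length, and the hyaluronan synthase gene was among the lowest of the 8. Vcan and Cd44 are each annotated with 8 coding transcripts of differing length, so their values per kilobase depend on the length chosen: Vcan stays first per median transcript length, while Cd44 and Adamts9 change places. A gene total does not separate the splice forms.

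**Figure D1:**
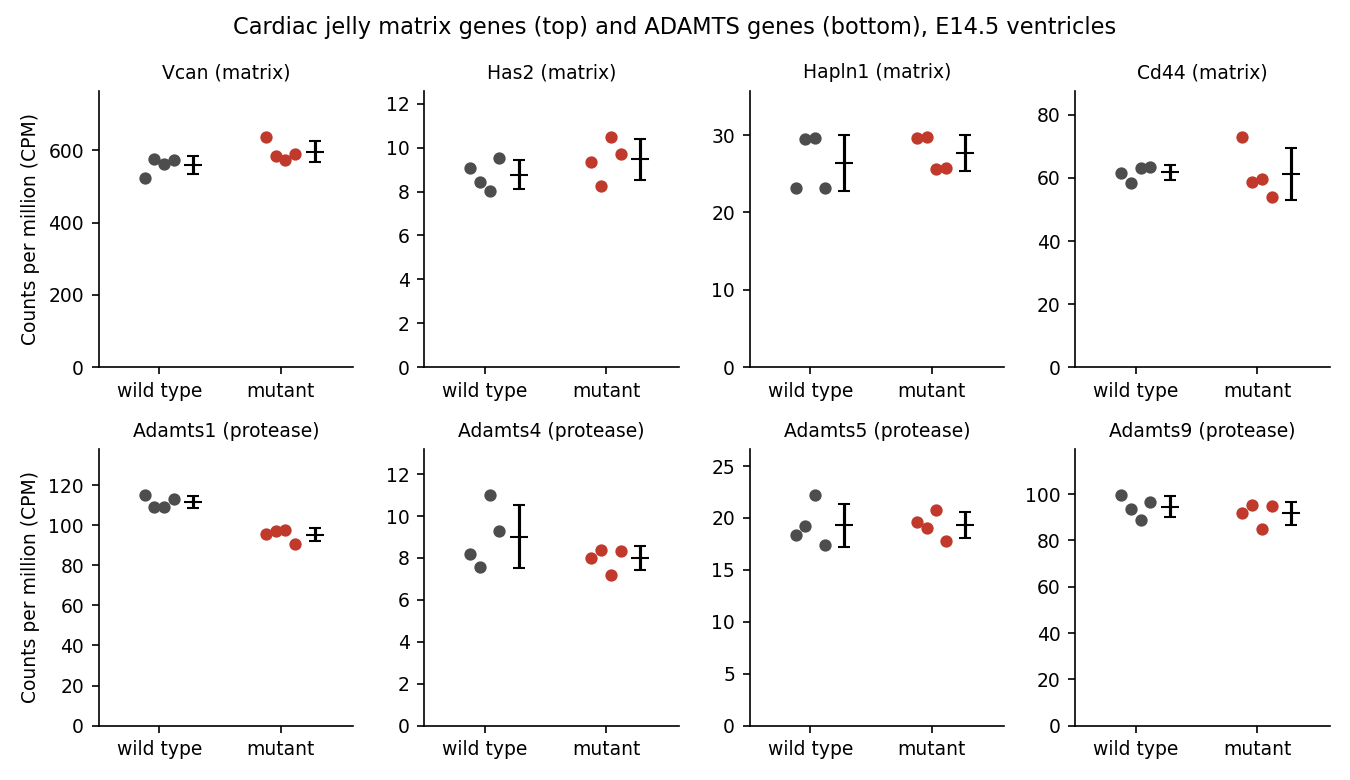
CPM (vertical axes, each from 0) of the 4 matrix genes (top) and the 4 ADAMTS genes (bottom) in 4 wild-type (grey) and 4 mutant (red) libraries; black bars show the mean and SD. The groups of Adamts1 do not overlap (90.7 to 97.6 against 109 to 115 CPM), whereas those of the other 7 genes do.

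Vcan (ENSMUSG00000021614), the main proteoglycan core protein of the jelly, gave 638, 583, 572 and 590 CPM in mutant replicates 1 to 4 and 523, 576, 563 and 574 CPM in wild-type replicates 1 to 4. Mutant replicate 1 was the highest and wild-type replicate 1 the lowest, and the other libraries of the groups overlapped. Vcan differed by 0.09 ± 0.05 on the log2 scale (SE; limma adjusted p = 0.441), with a 95% interval of −0.02 to 0.2. Its counts, at least 3573 per library, make counting error 1.67% or less. The interval, which comes from the spread between pools, runs from 0.987 to 1.15 of wild type.

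Has2 (ENSMUSG00000022367), which makes the hyaluronan to which versican binds, gave 9.35, 8.27, 10.5 and 9.72 CPM in the mutants and 9.08, 8.44, 8.03 and 9.54 CPM in wild type. The groups overlapped and the difference on the log2 scale was 0.1 ± 0.12 (SE; limma adjusted p = 0.741). With 51 to 106 counts per library, counting error alone reached 14.0%, and the 95% interval of −0.15 to 0.36 spans 0.899 to 1.28 of wild type. Has2 shares exon sequence with the antisense gene Has2os, and whether the counting used strand is not stated.

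Hapln1 (ENSMUSG00000021613), the link protein gene, gave 29.6, 29.8, 25.6 and 25.7 CPM in the mutants and 23.2, 29.5, 29.6 and 23.2 CPM in wild type. In each genotype 2 libraries lay near 30 CPM and 2 lay lower, and the log2 difference of 0.07 ± 0.1 (SE; limma adjusted p = 0.795) was within that spread. Hapln1 and Vcan are neighbouring genes on chromosome 13 in the RefSeq order of GRCm38.p6, with 0 protein-coding genes between them, and neither passed the test.

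Cd44 (ENSMUSG00000005087), the hyaluronan receptor gene, gave 73.1, 58.8, 59.7 and 53.9 CPM in the mutants and 61.7, 58.5, 63.3 and 63.6 CPM in wild type. The mutants held both the highest and the lowest library, and their coefficient of variation was 13.4% against 3.78% in wild type. The difference on the log2 scale was −0.02 ± 0.08 (SE; limma adjusted p = 0.953), between −0.1 and 0.04 over the alternatives tried, so no direction is given for Cd44.

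Among the proteases, Adamts1 (ENSMUSG00000022893) gave 95.7, 97.3, 97.6 and 90.7 CPM in the mutants and 115, 109, 109 and 113 CPM in wild type. Every mutant library lay below every wild-type library, a separation that 1 of the 8 members showed, beside 8.92% of all genes tested in either direction and 4.65% in this one. The means were 95.3 ± 3.19 and 112 ± 3.36 CPM (SD, n = 4), and the difference on the log2 scale was −0.23 ± 0.05 (SE; limma adjusted p = 0.0303), with a 95% interval of −0.34 to −0.12. An exact permutation test of the 8 libraries, two-sided, gave p = 0.0286, the lower limit of this design.

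The call of Adamts1 lay close to the threshold, and its direction was the same in all 20 alternatives. Many of these could not have changed it. The loosened threshold used the main fit, and a change only in how variances are moderated leaves the difference as it is. Because the groups did not overlap, leaving out 1 library could not reverse the direction either. A shared direction is therefore no further support for the call of Adamts1. Its limma adjusted p was 0.0736 without mutant replicate 2, 0.0801 without mutant replicate 4, and 0.12, 0.0777, 0.0758 and 0.0854 without wild-type replicates 1, 2, 3 and 4, while the call held without mutant replicate 1 or 3. Without a trend of the variance on the level the adjusted p was 0.101. The difference itself stayed between −0.24 and −0.2 on the log2 scale.

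Adamts4 (ENSMUSG00000006403), whose product is also known as aggrecanase 1, gave 8.02, 8.4, 7.18 and 8.35 CPM in the mutants and 8.21, 7.55, 11.0 and 9.29 CPM in wild type. Wild-type replicates 3 and 4 were the highest, and the difference on the log2 scale was −0.16 ± 0.14 (SE; limma adjusted p = 0.632). At 48 to 91 counts per library a fall as large as that of Adamts1 was not detectable for Adamts4, whose 95% interval ran from −0.46 to 0.13.

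Adamts5 (ENSMUSG00000022894), the gene of aggrecanase 2, gave 19.6, 19.0, 20.8 and 17.8 CPM in the mutants and 18.4, 19.2, 22.2 and 17.4 CPM in wild type. The wild-type libraries spanned all 4 mutant libraries, and the difference on the log2 scale was 0.0 ± 0.1 (SE; limma adjusted p = 0.997; 95% interval −0.2 to 0.21). Adamts5 is the direct neighbour of Adamts1 on chromosome 16, with 0 protein-coding genes between them. The interval of Adamts5 overlaps that of Adamts1, and the difference between these neighbours was not tested.

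Adamts9 (ENSMUSG00000030022), the protease gene with the next highest level per length, gave 91.8, 95.2, 84.8 and 95.1 CPM in the mutants and 99.6, 93.6, 88.7 and 96.7 CPM in wild type. The groups overlapped, and the difference on the log2 scale was −0.05 ± 0.06 (SE; limma adjusted p = 0.773). Its 95% interval, −0.17 to 0.08, reaches down to 0.888 of wild type. Exons of Adamts9 overlap those of A730049H05Rik and Gm15737 on the opposite strand.

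**Figure D2:**
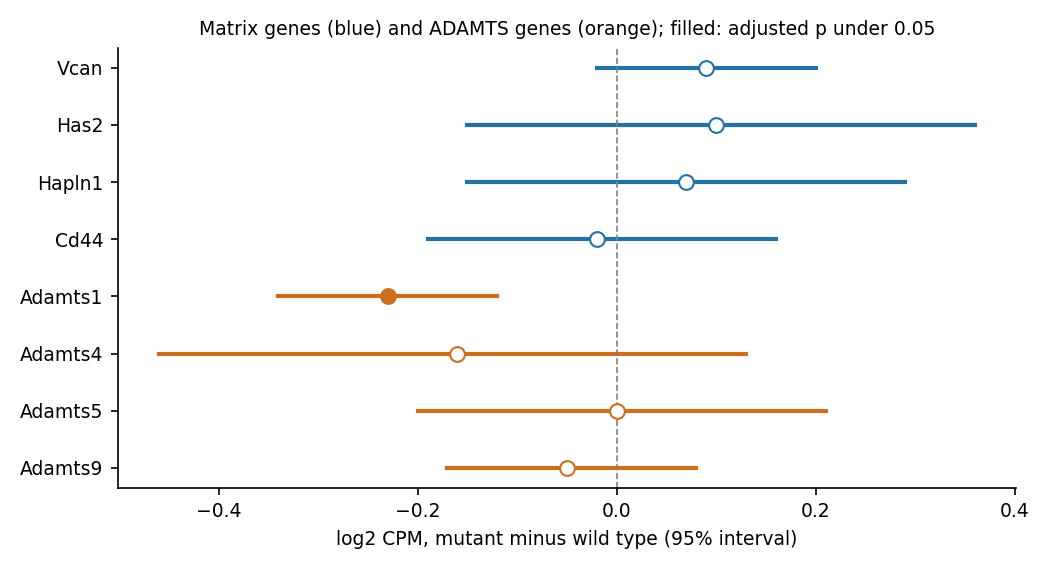
Difference in log2 CPM, mutant minus wild type (horizontal axis), for each matrix gene (blue) and protease gene (orange), with 95% intervals from limma; a filled circle marks an adjusted p under 0.05. The interval of Adamts1 (−0.34 to −0.12) excludes 0, and those of the other 7 genes include it.

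Matrix genes were then set against proteases within each library. The mean centred log2 level of the 4 matrix genes minus that of the 4 proteases was 0.19, 0.01, 0.1 and 0.04 in mutant replicates 1 to 4 and −0.13, 0.01, −0.16 and −0.07 in wild-type replicates 1 to 4. The lowest mutant library and the highest wild-type library both stood at 0.01, so the groups met at that value. The group means were 0.09 ± 0.08 and −0.09 ± 0.07 (SD, n = 4), a difference of 0.17. The matrix mean differed by 0.06 and the protease mean by −0.11, mutant minus wild type, and no p is given for a score over chosen genes. The protease mean includes Adamts1, the gene already called, so the score partly describes that same difference and is not a further result.

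The ratio of substrate to protease transcript separated the groups for Vcan and Adamts1. Vcan had 6.67, 5.99, 5.86 and 6.5 CPM per CPM of Adamts1 in the mutants and 4.53, 5.31, 5.16 and 5.07 in wild type, with no overlap. Relative to Adamts9 the ratio was 6.13 to 6.95 in the mutants and 5.25 to 6.35 in wild type, and relative to Adamts5 it was 27.5 to 33.1 and 25.3 to 33.1, with overlap in both cases. Relative to Adamts4 it was 69.4 to 79.6 and 51.0 to 76.4, again overlapping. The Adamts1 ratio uses the gene already called, so it describes the same difference and is not a further test of it.

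Like Adamts1, the summed pan-endothelial, endocardial and macrophage markers were lower in every mutant library than in every wild-type library. Erythroid markers were mostly lower, with overlapping sums. Within the mutants the order differed. Replicate 4 had the lowest Adamts1 (90.7 CPM), and replicate 1 the lowest pan-endothelial sum (1314 CPM). In bulk tissue, fewer cells of a type and less RNA per cell cannot be told apart. The 15 pan-endothelial markers, all detected, summed to 1314 to 1405 CPM in the mutants and 1540 to 1597 CPM in wild type. Of the 15, 14 lay below 0 and 3 were called lower (Ramp2, Egfl7 and the angiopoietin receptor gene Tek). Among all genes tested 1.25% were called lower. With 1 library left out, Ramp2 kept its call in all 8 fits, Egfl7 in 2 and Tek in 1. The 9 endocardial markers, all detected, summed to 745 to 806 against 873 to 906 CPM. Of these, 7 lay below 0, 4 were called lower (Plvap, Vwf, Npr3 and Adgrg6) and 5 were not called. Plvap, Vwf and Npr3 kept their calls in all 8 fits with a library left out, and Adgrg6 in 4. Nfatc1 and Cgnl1 lay above 0, at 0.05 and 0.08 on the log2 scale, and Emcn stood at −0.02. Of 12 macrophage markers 11 lay below 0 and 3 were called lower, with sums of 85.6 to 103 against 118 to 146 CPM. Of 9 erythroid markers 8 lay below 0 and 2 were called lower, with overlapping sums of 1966 to 3228 and 3002 to 4090 CPM. The 10 smooth muscle and pericyte markers summed to 1773 to 1887 CPM in the mutants and 1485 to 1670 CPM in wild type, with 2 called higher and 1 lower.

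As a share of the pan-endothelial sum, Adamts1 made 7.28%, 6.93%, 7.0% and 6.47% in mutant replicates 1 to 4 and 7.23%, 6.8%, 7.07% and 7.36% in wild-type replicates 1 to 4. On that scale the groups overlapped, and they also did as a share of the endocardial sum, at 11.2% to 13.1% against 12.2% to 13.2%. The part of any of these cell types in the fall of Adamts1 was not tested beyond these values. The 11 cushion and valve mesenchyme markers summed to 832 to 905 CPM in the mutants and 831 to 885 CPM in wild type, with 0 called by limma and 2 at an unadjusted p under 0.05, which 14.8% of all genes tested had.

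**Figure D3:**
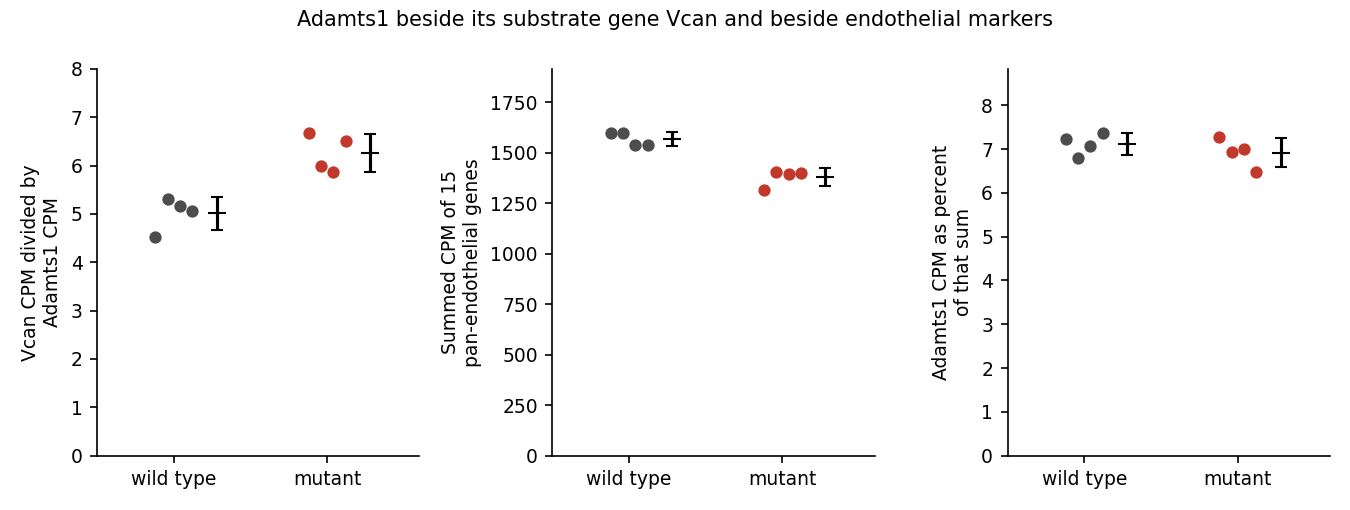
Vcan CPM divided by Adamts1 CPM (left), the summed CPM of 15 pan-endothelial genes (middle) and Adamts1 CPM as a percent of that sum (right) in 4 wild-type (grey) and 4 mutant (red) libraries, with mean and SD in black. The groups separate in the left and middle panels and overlap in the right panel (6.47% to 7.28% against 6.8% to 7.36%).

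The genes whose profile over the 8 libraries was nearest to that of Adamts1 were Itm2b, Add3 and Fkbp9. Likeness was the root mean square difference of the centred log2 CPM, which includes the difference between the groups. A lower level in the mutants thus follows from the choice of these genes and is not a further result. Itm2b stood at 259 ± 6.67 CPM in the mutants and 308 ± 11.2 CPM in wild type and was called lower (−0.25 on the log2 scale; limma adjusted p = 0.0101). Add3 and Fkbp9 stood at −0.19 and −0.17 and were not called, with limma adjusted p of 0.0601 and 0.0694.

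Around these 8 genes, 9 lists of matrix and protease genes held 133 genes, of which 106 were tested; 2 were called higher, 3 lower and 101 not called. That is 4.72% called, beside 2.24% of all genes tested, with a median log2 difference of 0.0 in both. The lists were chosen with earlier results of these data known, so the shares are set side by side without a test. The genes called were Adamts19, Spock2, Fbln1, Chsy1 and Fbn2.

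Among the 12 other ADAMTS genes tested, Adamts19 was the only call. It gave 44.4, 46.2, 41.0 and 46.1 CPM in the mutants and 66.3, 65.7, 60.9 and 55.9 CPM in wild type, a fall of 0.48 on the log2 scale (limma adjusted p = 0.00183) that held whichever library was left out. The groups did not overlap. Adamts8, at 30.9 ± 4.37 against 22.7 ± 3.77 CPM (SD, n = 4), was not called (limma adjusted p = 0.0814), nor was Adamts15, whose product can also cleave versican (0.29 on the log2 scale, limma adjusted p = 0.311). The list median was 0.04.

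Among 8 versican-binding proteins, Fbln1 fell and Fbn2 rose. Fbln1 encodes fibulin 1, known as a cofactor of ADAMTS1, and gave 80.9, 87.3, 96.2 and 90.8 CPM in the mutants and 117, 112, 110 and 109 CPM in wild type. All mutants lay below all controls, and the fall of 0.34 on the log2 scale (limma adjusted p = 0.00717) kept its call in all 8 fits with a library left out and lost it with no variance trend (limma adjusted p = 0.0551). Fbn2, the fibrillin 2 gene, rose from 441 ± 15.7 to 508 ± 18.6 CPM (SD, n = 4; limma adjusted p = 0.0378).

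The call of Fbn2 was close to the threshold. Its limma adjusted p was 0.133 and 0.0892 without mutant replicates 2 and 4 and 0.0719, 0.114, 0.108 and 0.115 without wild-type replicates 1 to 4, and it was 0.145 with no variance trend. Fbln2, which encodes fibulin 2, was at 0.34 ± 0.11 (SE) on the log2 scale, opposite in sign to Fbln1, and was not called (limma adjusted p = 0.143). The fibronectin gene Fn1 stood at 1181 ± 25.1 and 1236 ± 23.9 CPM (SD, n = 4) in mutants and wild type and was not called either.

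**Figure D4:**
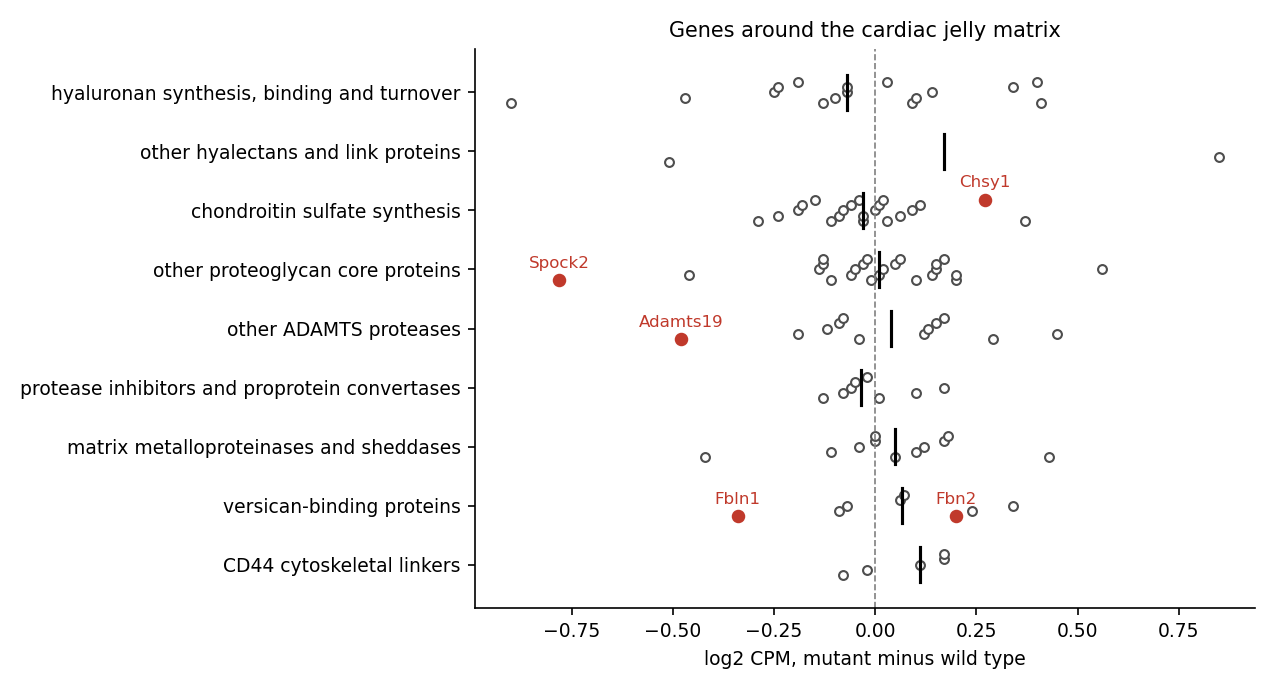
Difference in log2 CPM, mutant minus wild type (horizontal axis), of the 106 tested genes in 9 lists; each circle is a gene, red and named where the limma adjusted p was under 0.05, and the black bar is the list median. Named genes lie on both sides of 0, and the list medians lie between −0.07 and 0.17.

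Of 21 genes that build chondroitin sulfate, the side chain of versican, 1 rose. Chsy1, a chondroitin sulfate synthase gene, stood between 99.2 and 111 CPM in the mutants and gave 84.2, 92.8, 83.0 and 82.8 CPM in wild type (0.27 on the log2 scale; limma adjusted p = 0.0263). The groups did not overlap. Its limma adjusted p was 0.1 and 0.0572 without mutant replicates 2 and 4, and 0.095, 0.0946 and 0.0791 without wild-type replicates 1, 3 and 4, and it was 0.109 with no variance trend. The list median was −0.03.

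Of 16 genes of hyaluronan synthesis, binding and turnover none was called by limma, and 5 had an unadjusted p under 0.05 (14.8% of all genes tested). The smallest p belonged to Itih5, of the inter-alpha-trypsin inhibitor heavy chain family whose members bind hyaluronan, at 0.4 ± 0.12 on the log2 scale (SE; limma adjusted p = 0.109). The hyaluronidase gene Hyal2 stood at −0.19 on the log2 scale and Cemip2 at −0.07. Ugdh, which makes the UDP-glucuronic acid used for hyaluronan, stood at 0.09. Of the other hyalectans and link proteins only Acan and Hapln3 were in the table, with group means below 4 CPM, and neither was called (Acan 0.85 ± 0.51, SE).

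Of 23 other proteoglycan core proteins Spock2 fell. Spock2, which encodes testican 2, gave 7.94, 8.78, 9.73 and 10.7 CPM in the mutants and 14.1, 15.4, 18.6 and 15.8 CPM in wild type (limma adjusted p = 0.00323), without overlap and with its call kept in all 8 fits with a library left out. The fall was 0.78 on the log2 scale. The small leucine-rich proteoglycan gene Bgn stood at 226 ± 11.4 against 197 ± 11.3 CPM (SD, n = 4) and was not called (limma adjusted p = 0.0859), and the basement membrane perlecan gene Hspg2 stood at −0.11.

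The lists of protease inhibitors and convertases, of other metalloproteinases and of CD44 linkers held no call, and their counts at an unadjusted p under 0.05 are again set against 14.8% of all genes tested. Among 8 inhibitors and proprotein convertases, 0 were called by limma and 0 had an unadjusted p under 0.05. Timp3, whose product inhibits ADAMTS4 and ADAMTS5, stood at 223 ± 20.3 and 221 ± 7.06 CPM (SD, n = 4) in mutants and wild type, Furin, which activates ADAMTS precursors, at −0.08 and Reck at 0.17 on the log2 scale. Of 11 metalloproteinases and sheddases none was called by limma and 2 had an unadjusted p under 0.05, Mmp28 at −0.42 and Mmp16 at 0.43; Mmp14, a sheddase of CD44, stood at 0.0. Of 5 genes that link CD44 to the cytoskeleton none was called by limma and 2 had an unadjusted p under 0.05, Ezr and Msn, both at 0.17.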

How the data were processed

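The authors deposited 1 table of 13869 genes in 8 columns, named as normalized counts. Per the submitters' processing notes, cutadapt 1.2.1, RSEM 1.16, Bowtie2 0.12.7, limma and edgeR were used with build mm9. The deposited values are a score: log2 CPM with a prior of 0.5 counts, multiplied by a constant per library (15.9683 to 16.0735) so that each column sums to 1000000. Each column was divided by its constant, taken from the lowest and next lowest distinct values, which returned whole counts for 100.0% of values within 0.001 counts. CPM is the recovered count per 1000000 of the authors' normalized library size. Symbols came from GENCODE M21 for 13428 genes. Because build mm9 was named, no gene positions are given; promoter positions are those of the RefSeq table.

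Mutants and controls, 4 each, were compared on log2 CPM by limma 3.58.1 (R 4.3.3; eBayes with trend), and genes whose log2 CPM averaged under 0 were left out. Replicates of a group differed beyond sampling noise (chi-square per degree of freedom 1.96 to 9.43). P-values measure the spread between pools. Members and lists were chosen with earlier results of these data known. Named were the members, Mib1, the genes called in each list (or that of smallest p), and the 3 genes nearest in profile to a called member; other genes were chosen after their values were seen. Replicate numbers do not pair the libraries. Alternatives covered the pseudocount, filter, scaling, variance model, replicate number, threshold and each library left out.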

Additional observations from a re-analysis of the deposited data

Results flagged for a closer look

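Chsy1 in wild-type replicate 2 stood at 92.8 CPM, apart from the other 3 wild-type libraries, the nearest of which was at 84.2 CPM. Its gap was 0.861 of the range of the group, above the critical value of Dixon for 4 samples. The value lies on the side of the mutants, whose lowest library was at 99.2 CPM. It was 1 of 28 groups examined, and chance flags about 1 group in 20.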

How the results depend on the processing

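The direction of Adamts1 was the same in all 20 alternatives, and its call held in 10 of the 12 that left out no library. The alternative at an adjusted p under 0.1 only loosens the threshold on the main fit. Its direction and call were therefore fixed in advance. The fits with no variance trend, with robust variances and with the replicate block keep the same difference in this balanced design. As the groups of Adamts1 did not overlap, leaving out 1 library could not reverse it, so these directions were fixed as well. The log2 difference was −0.23 with no variance trend (adjusted p = 0.101) and −0.23 with the replicate number as a replicate block (adjusted p = 0.0904), so that 0 members were called under either. With a library left out the difference ran from −0.24 to −0.2, with adjusted p of 0.0293 to 0.12, and 0 to 1 members were called. The other 7 members were called in none of the 20 alternatives; Cd44 changed sign in 2 and Adamts5 in 4. Genes called in all numbered 308, 179 with no variance trend, 551 at an adjusted p under 0.1, 240 with the replicate block and 146 to 477 with a library left out. The highest, 477, came without mutant replicate 3, and the lowest, 146, without wild-type replicate 1. Same-numbered libraries correlated across genes at −0.038 to 0.1 after removal of the group means, and 1 of 8 libraries matched its own number best, so the numbers do not pair the samples. In the 9 lists 5 genes were called, 10 at an adjusted p under 0.1 and 3 to 6 with a library left out; the block ended the call of Fbn2 (adjusted p = 0.0985), and no variance trend ended those of Fbn2 (0.145), Chsy1 (0.109) and Fbln1 (0.0551). The matrix minus protease difference of 0.17 ran from 0.14 to 0.2. Per kilobase of the median coding transcript, wild-type levels became 243 CPM for Vcan, 30.9 for Adamts1, 25.6 for Cd44 and 13.5 for Adamts9, which places Cd44 above Adamts9. Depth limits Has2 and Adamts4 most.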
